A study of Mus musculus with 10 samples.

Results

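The nuclear genes for complexes II to V of the mitochondrial respiratory chain, together with cytochrome c, were followed in P19 cells after depletion of Larp1. P19 is a mouse embryonal carcinoma cell line, and its undifferentiated wild-type cells were used. Members were the genes with kept mRNA reads whose symbols start with Uqcr, Atp5, Cox4, Cox5, Cox6, Cox7 or Cox8, plus Sdha, Sdhb, Sdhc, Sdhd, Cyc1 and Cycs. The rule found 46 genes of the 13272 with a kept read. They comprised 4 genes of complex II (succinate dehydrogenase), 9 of complex III (cytochrome bc1), 1 for cytochrome c (Cycs), 15 of complex IV (cytochrome c oxidase) and 17 of complex V (ATP synthase). One gene gathered by the prefix, Cox7a2l, encodes a factor that joins complexes III and IV into supercomplexes rather than a core subunit.

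Complex II passes electrons from succinate to ubiquinone, complex III passes them on to cytochrome c, and complex IV passes them to oxygen. The proton gradient built by complexes III and IV, and by complex I, drives ATP synthesis by complex V. Most subunits are encoded in the nucleus, translated in the cytosol and imported into the inner membrane. LARP1 is an RNA-binding protein that binds the cap and first bases of mRNAs that begin with a C and a run of pyrimidines (TOP mRNAs, mainly those for ribosomal proteins), and it also binds poly(A) and its binding protein.

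Cells of the control groups (siCtl) received a pool of scrambled siRNAs with Lipofectamine, and cells of the siLarp1 groups received 1 Larp1 siRNA. They were harvested at 24 h, or, after another transfection 24 h after the first, at 48 h. Of the 10 libraries, 6 were from 24 h, with 3 of each treatment (numbered 19, 21 and 22 in both), and 4 were from 48 h, with 2 of each (24 and 25). Values below follow that order of libraries, and which labelled replicate each number stands for was not given in the sources used here. Poly(A) RNA was read as native molecules on nanopores, so that 1 read stood for 1 molecule from its poly(A) tail inwards, and levels are given as reads per 1000000 kept reads of the library (RPM) with no scaling by length. The tail of each read was sorted into a class under 30 nt, a class of 30 to 90 nt (around 60 nt) or longer.

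The libraries held 112713 to 423365 kept reads. At 24 h the siLarp1 libraries were shallower (119855 to 157047) than the siCtl libraries (289717 to 423365). The treatments were pooled separately at 24 h, so a difference between treatments at that time cannot be told apart from one between pools. The 4 libraries at 48 h shared 1 pool. All 10 markers of embryonal carcinoma cells had reads (3379 to 4591 RPM summed). The 6 neuron markers summed to 199 to 372 RPM with Neurod1 at 0, and markers of fibroblasts, endoderm and muscle reached at most 12.3 RPM, with Col3a1, Afp, Sox17, Myh7, Tnnt2 and Myog at 0 throughout. Larp1 itself had few reads. It was at 75.9, 84.2 and 85.0 RPM in siCtl and 33.4, 44.9 and 19.1 RPM in siLarp1 at 24 h, and at 169 and 123 against 18.5 and 24.9 RPM at 48 h. The groups did not overlap at either time. The log2 fold change was -1.32 ± 0.41 (SE) at 24 h (adjusted p = 0.63), -2.56 ± 0.59 at 48 h (adjusted p = 0.0868) and -1.94 ± 0.36 over both times (adjusted p = 0.00108; limma, Benjamini-Hochberg over all genes tested). Without siLarp1 48 h library 24 the adjusted p of Larp1 was 0.169, and under the other alternatives it stayed at or below 0.0403.

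The members gave 53710 reads, between 2.43 and 2.75% of the kept reads of a library, from 19 chromosomes. Complex V supplied 48.5% of these reads, complex IV 32.2%, complex III 14.0%, complex II 3.13% and cytochrome c 2.10%. There were 4 members close to absent over all 10 libraries. These were Cox4i2 (2 reads), Cox7b2 (4), Cox6b2 (20) and Cox7a1 (30), which are isoforms known mainly from lung, testis, and heart and skeletal muscle. The other 42 members had 259 to 3564 reads each. Their mean level in siCtl cells at 24 h ran from 109 RPM for Sdha, the flavoprotein of complex II, over a median of 596 RPM to 1757 RPM for Atp5b, the catalytic subunit of complex V. A share of 10.7% of the members' reads had a mapping quality of 0, the value of a read that fits more than 1 transcript. This held for all reads of Atp5a1 and Uqcrc1 and 92.5% of those of Atp5d, whose values are therefore less certain. Reads were tallied by gene, and 16 of the members' reads were kept on more than 1 gene.

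The first bases at the annotated start are shown for 3 members with a start that has a C and a pyrimidine run (in Atp5d, 1 of its 2 starts) and for the 5 members called below. They are from RefSeq on build GRCm38.p6, run from the start site inwards on the strand of the gene, and have the leading run of pyrimidines in capitals.
Atp5g2 (chr15:102671028-102671047, minus strand): CCCTCTCTgtcttctctgcc
Uqcrfs1 (chr13:30545297-30545316, minus strand): CTCTTCgggccgtcgttcga
Atp5d (chr10:80142315-80142334, plus strand): CCTTCggagaatcctgtgcg
Atp5o (chr16:91931611-91931630, minus strand): CTggcgcgcgcgcgtgcgct
Cox7b (chrX:106015700-106015719, plus strand): atctcaccaattctcatttg
Atp5h (chr11:115419900-115419919, minus strand): gagagcactccgccgggggt
Cox7a2 (chr9:79759834-79759853, minus strand): agacgggccgctgcgagaag
Atp5pb (chr3:105959244-105959263, minus strand): atcttgctcctgcccctgac
A start site was found for 36 of the 46 members (39 starts). A C followed by at least 4 pyrimidines stood at 3 of these starts (7.69%), against 2.51% of all 32851 RefSeq starts. For cytosolic ribosomal protein genes, the textbook TOP mRNAs, it stood at 13 of 72 starts (18.1%), so that the annotated first base was often not a pyrimidine even there, and a missing run says only that these letters are not at the annotated start. None of the 5 members called below had such a run. Of the 3 that had it, Atp5g2 and Uqcrfs1 are also described below, without a call.

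The level of the members together did not move beyond its spread. In siCtl cells their summed level was 26594 ± 624 RPM at 24 h (SD, n = 3), against 26947 ± 952 RPM (n = 3) in siLarp1 cells, and 25688 ± 1965 against 25010 ± 717 RPM (n = 2 each) at 48 h. In RNA of a whole culture, fewer cells with a transcript and less of it per cell cannot be told apart. Of the 43 members with at least 30 reads, none changed by limma at 24 h (3 higher and 1 lower at an unadjusted p under 0.05) and none at 48 h (0 higher and 1 lower). Over all 5857 genes tested, 0% were called at 24 h (228 higher and 114 lower at an unadjusted p under 0.05) and 0.0341% at 48 h. The median log2 fold change of the members was 0.03 at 24 h and -0.01 at 48 h, against 0.02 and 0.05 over all genes. Of all genes tested in level, 5.05% at 24 h and 18.17% at 48 h had every siLarp1 library above every siCtl library. Another 6.06% at 24 h and 14.99% at 48 h had every siLarp1 library below. Of the 43 members tested, 4 lay above and 4 below in this way at 24 h, and 8 and 7 at 48 h. Values by library follow for the best-covered members of each complex.

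In complex II, Sdhb, the iron-sulfur subunit, was at 342, 372 and 295 RPM in siCtl and 334, 329 and 267 RPM in siLarp1 at 24 h, and at 204 and 313 against 265 and 257 RPM at 48 h. Sdhd, a membrane anchor, was at 193, 189 and 220 against 209, 232 and 236 RPM at 24 h, and at 142 and 179 against 210 and 232 RPM at 48 h. The groups of Sdhb overlapped at both times, whereas those of Sdhd overlapped at 24 h alone. In complex III, Uqcrq, a small membrane subunit, was at 614, 604 and 702 against 617, 501 and 618 RPM at 24 h, and at 603 and 582 against 524 and 606 RPM at 48 h. Uqcrh, the hinge protein beside cytochrome c1, was at 587, 555 and 574 against 584, 561 and 618 RPM at 24 h, and at 550 and 381 against 512 and 465 RPM at 48 h. Both genes overlapped between treatments throughout. Cycs, the mobile carrier between complexes III and IV, was at 583, 564 and 591 against 551, 561 and 516 RPM at 24 h, and at 612 and 515 against 444 and 489 RPM at 48 h. Its siLarp1 libraries lay just below the siCtl libraries at each time, and the difference did not pass the test.

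In complex IV, Cox7c, a small accessory subunit and the most read gene of the complex, was at 1505, 1624 and 1635 against 1719, 1525 and 1713 RPM at 24 h, and at 1570 and 1254 against 1395 and 1493 RPM at 48 h. Cox8a, another accessory subunit, was at 1046, 976 and 1105 against 768, 845 and 1127 RPM at 24 h, and at 1242 and 873 against 864 and 987 RPM at 48 h. In complex V, Atp5b was at 1726, 1839 and 1708 against 1777, 1667 and 1656 RPM at 24 h, and at 2076 and 1589 against 1728 and 1775 RPM at 48 h. Atp5g3, a gene for the proton-carrying c ring, was at 1277, 1406 and 1368 against 1302, 1264 and 1375 RPM at 24 h, and at 1269 and 1069 against 1327 and 1037 RPM at 48 h. The groups of all 4 genes overlapped at 24 h. At 48 h those of Cox7c, Atp5b and Atp5g3 overlapped, and Cox8a had 1 siLarp1 library below and 1 between the siCtl libraries.

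The exception was Atp5pb, which encodes subunit b of the peripheral stalk that holds the head of ATP synthase still against its rotor. It was at 552, 572 and 588 RPM in siCtl and at 359, 374 and 331 RPM in siLarp1 at 24 h, and at 497 and 576 against 376 and 340 RPM at 48 h. Every siLarp1 library lay below every siCtl library of its time. The siLarp1 mean was 0.621 of the siCtl mean at 24 h and 0.668 of it at 48 h, where all libraries came from 1 pool. An exact two-sided permutation test over the libraries gave p = 0.1 at 24 h, the smallest that 3 against 3 libraries allow, and 2 against 2 libraries at 48 h allow no smaller value. In the limma fit, the log2 fold change of Atp5pb was -0.69 ± 0.15 (SE) at 24 h (adjusted p = 0.0672) and -0.59 ± 0.20 at 48 h (adjusted p = 0.885). Over both times Atp5pb fell by 0.64 ± 0.12 on the log2 scale (adjusted p = 0.00239), and the change did not differ detectably between the times (0.10, adjusted p = 0.989). It was the only member called over both times, where 0.0854% of all genes were called lower. Without siCtl 48 h library 25 the call of Atp5pb was lost (-0.58, adjusted p = 0.161), under the other alternatives that tested it the adjusted p stayed at or below 0.0455, and 0.0988% of its 1012 reads started within 50 nt of the annotated start.

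**Figure D1:**
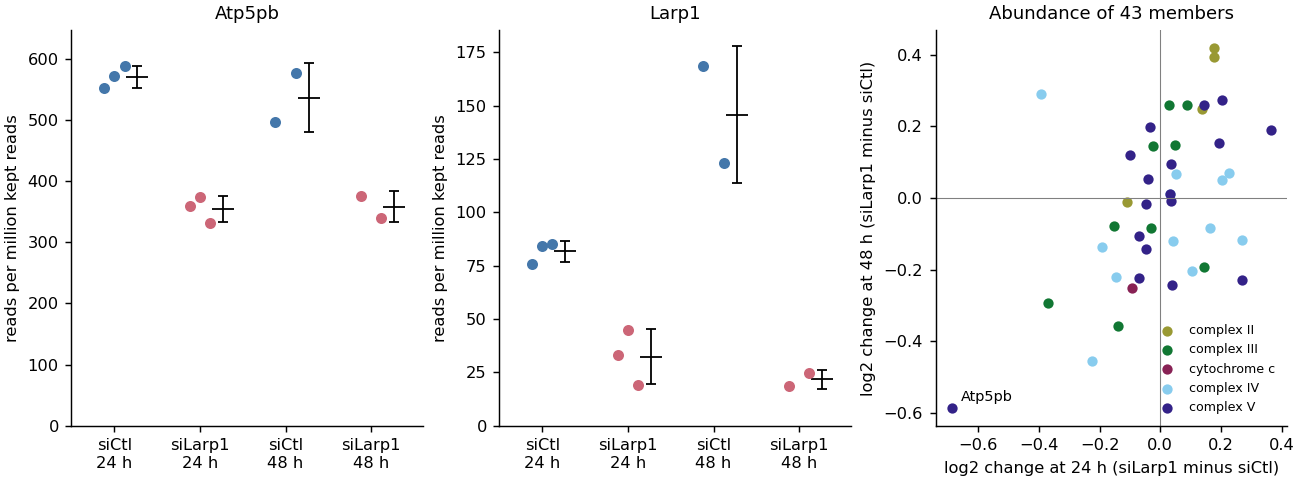
The left and middle panels show the RPM of Atp5pb and Larp1 in each library, with the mean and SD of each group as a black bar, and the right panel shows the log2 fold change of each of the 43 members tested at 24 h (x axis) and 48 h (y axis), coloured by complex. The members lie around 0 on both axes, and Atp5pb stands alone at -0.69 and -0.59.

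The members next in order did not pass the test. Atp5k and Atp5md, small membrane subunits of ATP synthase, had log2 fold changes of 0.36 ± 0.14 (adjusted p = 0.763) and 0.27 ± 0.12 (adjusted p = 0.798) at 24 h. Atp5k was at 373, 360 and 420 RPM in siCtl and 559, 508 and 439 RPM in siLarp1 at 24 h, and at 390 and 431 against 432 and 531 RPM at 48 h, each time with no overlap. Atp5md was at 652, 523 and 690 against 768, 695 and 777 RPM at 24 h, and at 763 and 621 against 617 and 531 RPM at 48 h. It thus lay above its siCtl libraries at 24 h and below them at 48 h. Cox7a2l was at 280, 293 and 302 against 225, 262 and 255 RPM at 24 h, and at 248 and 336 against 216 and 216 RPM at 48 h (48 h log2 fold change -0.46 ± 0.25, adjusted p = 0.945). Cyc1, the cytochrome c1 of complex III, was at 476, 447 and 423 against 400, 359 and 446 RPM at 24 h, and at 497 and 397 against 352 and 324 RPM at 48 h (-0.36 ± 0.21, adjusted p = 0.945). At 48 h both genes lay below the siCtl libraries, and Cox7a2l did so at 24 h as well. The median SE of a member's log2 fold change was 0.13 at 24 h and 0.19 at 48 h.

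Tail lengths differed among the members in siCtl cells. Among the 42 well-covered members the mean of the median tail in siCtl cells at 24 h ran from 92.3 nt for Uqcrfs1, the Rieske iron-sulfur protein of complex III, over a median of 104 nt to 126 nt for Cox6c of complex IV. The share of tails under 30 nt ran from 0% for Atp5k over 1.43% to 7.05% for Cyc1, and the share around 60 nt from 18.2% for Cox6c over 37.8% to 44.3% for Atp5c1, the central shaft of ATP synthase. Summed over members, the median tail in siCtl cells was 105 ± 1.03 nt at 24 h (SD, n = 3) and 98.2 ± 0.33 nt at 48 h (n = 2).

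The share of members' tails under 30 nt was higher in siLarp1 cells at both times. At 24 h it was 1.73, 1.51 and 1.75% in siCtl and 2.34, 2.66 and 2.41% in siLarp1, or 1.66 ± 0.13 and 2.47 ± 0.17% (SD, n = 3 each). At 48 h it was 1.67 and 2.19% in siCtl and 3.35 and 3.25% in siLarp1, or 1.93 ± 0.37 and 3.30 ± 0.07% (n = 2 each). The groups did not overlap, and the difference was 0.81 percentage points at 24 h and 1.37 at 48 h within 1 pool. The reads of all other genes moved the same way, from 2.28 ± 0.15 to 2.85 ± 0.34% at 24 h (0.57 points) and from 2.92 ± 0.11 to 3.80 ± 0.60% at 48 h (0.88 points). In siCtl cells the members had the lower share at each time, and whether their gain differed from that of other genes was not tested.

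**Figure D2:**
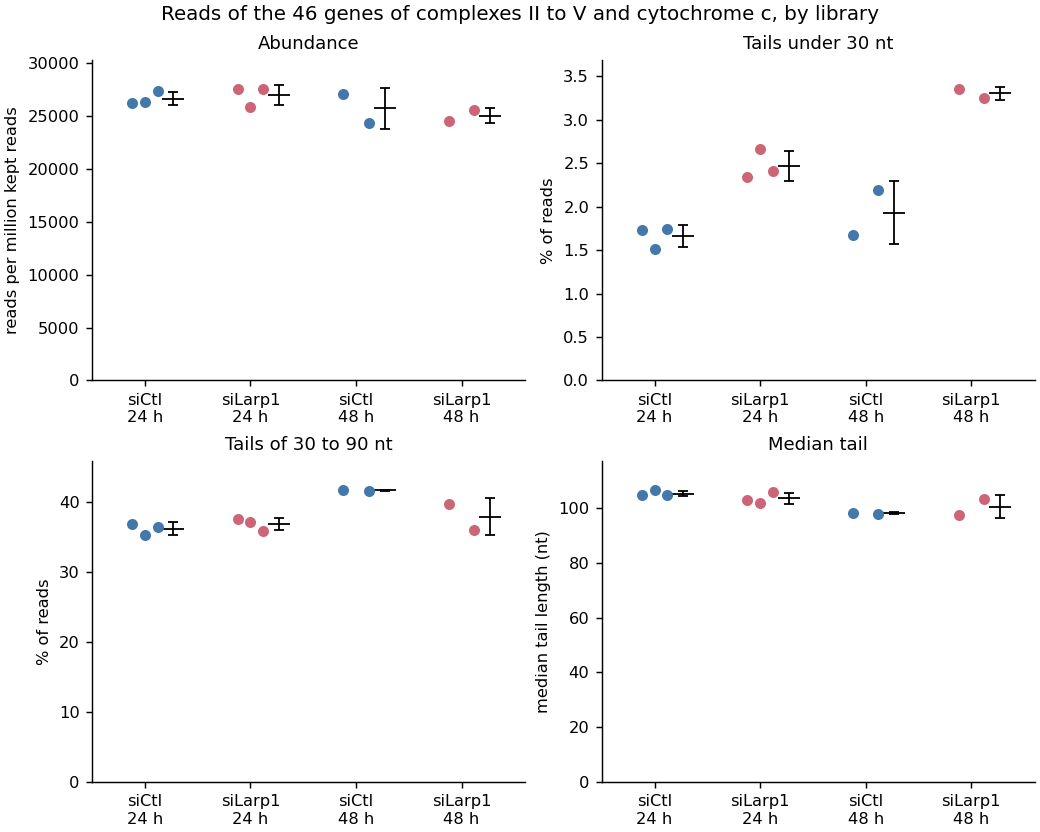
The plot shows the values of the 46 members summed in each of the 10 libraries, by group: level in RPM, the shares under 30 nt and of 30 to 90 nt in % of reads, and the median tail in nt. Points are libraries and black bars the mean and SD. The share of tails under 30 nt lies at 1.51 to 2.19% in siCtl and at 2.34 to 3.35% in siLarp1 libraries, with no overlap within a time.

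By complex, ATP synthase was the one whose groups stood apart at both times, as those of all genes other than the members, summed, also did. The share of ATP synthase under 30 nt was 1.39 ± 0.08% in siCtl and 2.37 ± 0.14% in siLarp1 cells at 24 h. At 48 h it was 1.60 ± 0.14 against 3.32 ± 0.24%. Complex IV had 1.31 against 2.03% at 24 h with overlapping libraries, and 1.73 ± 0.20 against 2.63 ± 0.43% at 48 h without overlap. Complex III had 2.53 against 3.41% at 24 h and 2.73 against 4.40% at 48 h, where the siCtl libraries were far apart (0.948 and 4.52%). Complex II went the other way, with 3.64 against 3.18% at 24 h and 4.65 against 4.07% at 48 h, with overlapping libraries on the few reads of its genes. Cycs had 4.59 against 4.31% at 24 h and 3.26 against 4.08% at 48 h.

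Gene by gene, 36 members had enough reads in and outside the class for the test. None passed it at 24 h (limma; 7 higher and 0 lower at an unadjusted p under 0.05), against 2.05% of the 977 genes tested. At 48 h 1 member rose, against 2.97% of genes, and over both times 4 members rose (11.1% of those tested) against 5.83% of genes. No member fell. The change over both times was above 0 in 31 of 36 members, against 66.8% of all genes tested. Its median was 1.02 percentage points in the members against 0.70 over all genes tested. No gene differed between the times after adjustment (limma; 41 higher and 20 lower at an unadjusted p under 0.05, of which 2 and 1 were members).

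Of the 4 members, Atp5o and Atp5h encode parts of the peripheral stalk of ATP synthase, the subunit at its top (OSCP) and subunit d. In Atp5o, 2 of 193, 0 of 226 and 6 of 288 tails were under 30 nt in siCtl at 24 h (1.04, 0 and 2.08%), against 2 of 73, 5 of 99 and 5 of 110 in siLarp1 (2.74, 5.05 and 4.55%). At 48 h it was 0 of 89 and 0 of 114 in siCtl, which allow shares of up to 3.37 and 2.63%, against 3 of 85 and 4 of 82 in siLarp1 (3.53 and 4.88%). The siLarp1 libraries of Atp5o lay above the siCtl libraries at both times. Its share rose by 3.66 ± 0.93 percentage points over both times (SE, adjusted p = 0.00645), with 3.12 ± 1.03 at 24 h (adjusted p = 0.0963) and 4.19 ± 1.53 at 48 h (adjusted p = 0.138).

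In Atp5h the share was 1.42, 1.45 and 1.13% in siCtl and 1.94, 2.04 and 1.71% in siLarp1 at 24 h, a narrow gap on 2 short tails in each siLarp1 library. At 48 h it was 0 and 1.55% in siCtl against 4.03 and 8.91% in siLarp1, where library 25 had 9 short tails of 101 (95% Wilson interval 4.76 to 16.1%, which covers counting error only). The gap was therefore wide at 48 h alone. The difference was 0.58 points at 24 h (adjusted p = 0.998) and rose to 5.24 ± 1.48 points at 48 h (adjusted p = 0.0258), and over both times it was 2.91 ± 0.90 points (adjusted p = 0.0355). The difference between the times, 4.66 points, did not pass the test (adjusted p = 0.632).

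Cox7b and Cox7a2 encode small accessory subunits of cytochrome c oxidase. In Cox7b the share was 0.546, 0.461 and 0.704% in siCtl and 0.971, 1.89 and 4.90% in siLarp1 at 24 h, and 1.52 and 1.04% against 6.74 and 3.95% at 48 h, with no overlap at either time. It rose by 3.10 ± 0.91 points over both times (adjusted p = 0.0235), and neither time passed alone (1.99 points, adjusted p = 0.404; 4.22 points, adjusted p = 0.138). In Cox7a2 it was 0.885, 1.19 and 0.264% in siCtl and 2.61, 0.935 and 2.24% in siLarp1 at 24 h, where 1 siLarp1 library lay among the siCtl libraries. At 48 h it was 2.97 and 0% against 5.83 and 3.23%, without overlap. Its share rose by 2.39 ± 0.75 points over both times (adjusted p = 0.0401), with 1.27 points at 24 h (adjusted p = 0.721) and 3.51 ± 1.24 points at 48 h (adjusted p = 0.128).

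All 4 calls rest on few short tails, and all were lost without siCtl 48 h library 25. That was the only alternative that tested Atp5o and lost its call (adjusted p = 0.0707). Cox7b was also lost without siLarp1 24 h library 22 or siLarp1 48 h library 24, and its adjusted p reached 0.307 when all libraries were thinned to equal depth. Atp5h over both times was lost without any of 6 libraries (siCtl 24 h 22, siCtl 48 h 24 and 25, siLarp1 24 h 19 and 21, siLarp1 48 h 25), with an adjusted p of up to 0.462 among reads that started within 50 nt of the annotated start. At 48 h alone the call of Atp5h was lost without siCtl library 24 or 25 or siLarp1 library 25 of that time, at a barcode confidence of at least 0.9 (adjusted p = 0.0895), in a logistic model (adjusted p = 0.428) and among reads that started within 50 nt of the annotated start (3.35 points, adjusted p = 0.558). Cox7a2 was lost without siCtl 24 h library 22, siLarp1 24 h library 19 or 22, siLarp1 48 h library 24 or siCtl 48 h library 25 (adjusted p = 0.565 without the last). It was also lost at a barcode confidence of at least 0.9 (adjusted p = 0.129), when thinned (adjusted p = 0.11) and in the logistic model (adjusted p = 0.0993). At the same confidence, when thinned and in the logistic model, Cox7b and Atp5h over both times were lost as well.

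**Figure D3:**
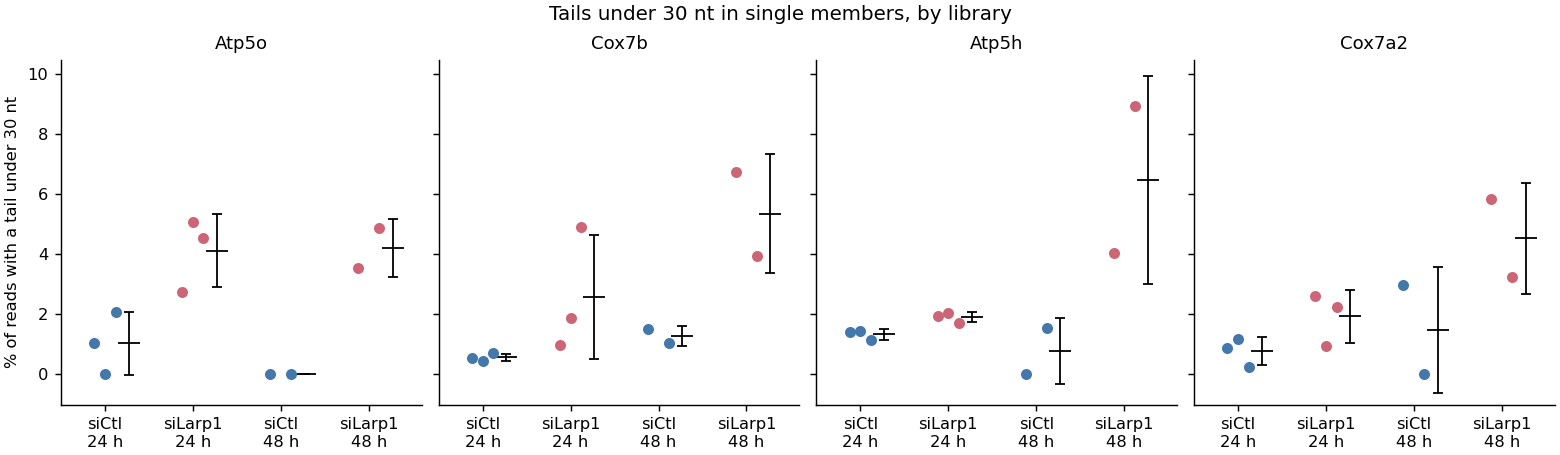
The plot shows the percentage of tails under 30 nt in each library for Atp5o, Cox7b, Atp5h and Cox7a2, by group, with the mean and SD of each group as a black bar. In Atp5o, Cox7b and Atp5h the siLarp1 points lie above the siCtl points of their time, and in Cox7a2 they overlap at 24 h.

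With Atp5o, Atp5g2 and Cox4i1 had the smallest unadjusted p among the members at 24 h. The start of Atp5g2 is shown above, and Cox4i1 is the accessory subunit that regulates complex IV. Atp5g2 had 2.15, 0.702 and 0.885% in siCtl against 4.21, 1.12 and 6.30% in siLarp1 at 24 h (3.01 ± 0.97 points, adjusted p = 0.0792), and 1.19 and 1.77% against 1.67 and 1.14% at 48 h. Cox4i1 had 0.431, 0 and 0.290% against 1.82, 1.53 and 1.94% at 24 h (1.55 ± 0.55 points, adjusted p = 0.128), and 0.990 and 1.14% against 1.52 and 0% at 48 h. Cox4i1 was higher in every siLarp1 library at 24 h, Atp5g2 in 2 of 3, and at 48 h the groups of both genes overlapped. Atp5pb had 1.88, 4.57 and 4.42% against 6.98, 4 and 5.77% at 24 h and 1.79 and 2.91% against 6.56 and 12.2% at 48 h, a change over both times of 4.01 points that did not pass (adjusted p = 0.173).

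Every siLarp1 library lay above every siCtl library in 7 of 36 members at 24 h, against 11.2% of all genes tested, and in 16 of 36 at 48 h, against 27.5%. At 24 h these were Atp5g3, Atp5h, Atp5l, Atp5o, Cox4i1, Cox7b and Uqcrc2. Atp5h, Atp5o and Cox7b were among them at both times. The reverse order was found in 0 of the 36 members at 24 h, against 4.30% of all genes tested, and in 4 at 48 h (Atp5md, Cox5b, Sdhd and Uqcrc2), against 10.0%. In these orders Uqcrc2, a core protein of complex III, stood on opposite sides at the 2 times. Members with fewer than 10 short tails were not tested. Among these, Sdha (8 short tails) had a mean of 3.63% in siCtl and 0% in siLarp1 at 24 h, without overlap. At 48 h it had 2.78% against 6.27%, with overlap. Atp5k (9 short tails) had 1.30% against 3.71% at 48 h, without overlap.

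**Figure D4:**
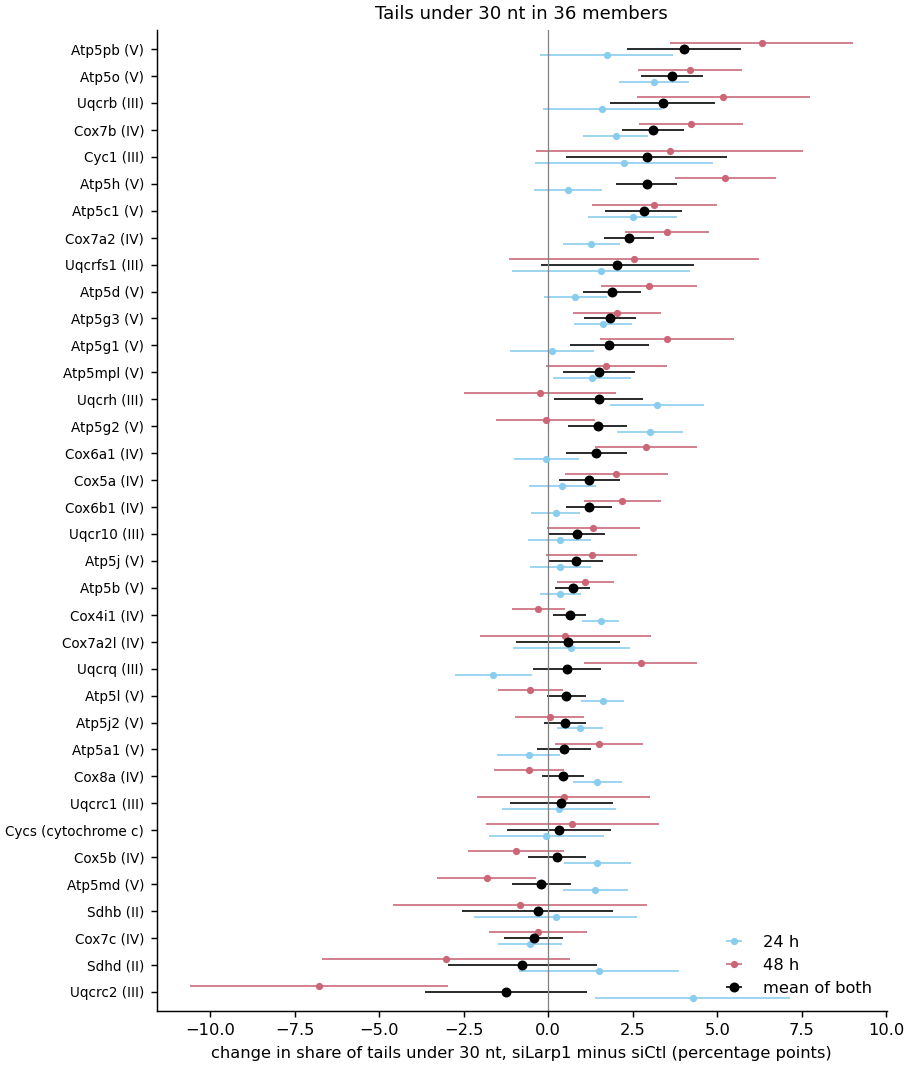
The plot shows the change in the percentage of tails under 30 nt (siLarp1 minus siCtl, in percentage points) of the 36 members tested at 24 h, at 48 h and as the mean of both, with the SE as a line and the complex after each name. At 24 h 31 members lie above 0 and at 48 h 25 do, against 59.8 and 63.4% of all genes tested.

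The class around 60 nt gave no call in the members. Summed over them its share was 36.1 ± 0.87% in siCtl and 36.8 ± 0.87% in siLarp1 cells at 24 h (SD, n = 3 each), and 41.6 ± 0.03 against 37.8 ± 2.62% at 48 h (n = 2 each), where both siLarp1 libraries lay below the siCtl libraries. Other genes went the same way at 48 h (41.2 against 38.5%). Of the 42 members tested, 0 passed at 24 h (limma; 0 higher and 0 lower at an unadjusted p under 0.05) and 0 at 48 h (1 and 5), and 0% of the 2611 genes tested were called at either time (24 h 62 higher and 95 lower, 48 h 39 and 133, unadjusted). At 48 h 29 of the 42 members were below 0 and 13 above, where 37.3% of all genes tested were above 0. The median was -4.01 percentage points in the members against -3.01 over all genes.

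The median tail likewise gave 0 of 42 members and 0% of the 2123 genes tested at 24 h and again 0% at 48 h (limma; members 0 higher and 1 lower at 24 h, 1 and 1 at 48 h at an unadjusted p under 0.05). The median change of the members was -1.07 nt at 24 h and 4.14 nt at 48 h, against 1.15 and 2.85 nt over all genes. Summed over the members, the median tail was 105 ± 1.03 against 104 ± 2.02 nt at 24 h and 98.2 ± 0.33 against 101 ± 4.16 nt at 48 h, which overlapped.

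Uqcrh and Uqcrfs1 of complex III had the smallest unadjusted p among the members for the median tail at both times, and went opposite ways. In this measure every siLarp1 library lay above every siCtl library in 6.41% of all genes tested at 24 h and 21.3% at 48 h. The reverse order was found in 5.70 and 13.0%. The median tail of Uqcrh was 95.5, 104 and 97.3 nt in siCtl and 82.0, 82.6 and 91.1 nt in siLarp1 at 24 h, and 79.5 and 85.7 against 107 and 99.4 nt at 48 h. It was thus shorter in every siLarp1 library at 24 h and longer in every one at 48 h. The change was -13.2 ± 5.27 nt at 24 h (adjusted p = 0.661) and 21.3 ± 8.45 nt at 48 h (adjusted p = 0.765), and the difference between the times, 34.4 ± 9.95 nt, did not pass in limma (adjusted p = 0.484). Its share around 60 nt was 43.5, 38.2 and 39.9% against 47.1, 52.0 and 45.4% at 24 h (7.54 ± 3.96 points, adjusted p = 0.831), and 54.8 and 50.0% against 32.5 and 41.1% at 48 h (-16.3 ± 6.35 points, adjusted p = 0.73).

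Uqcrfs1 had median tails of 79.2, 100 and 97.4 nt in siCtl and 108, 108 and 109 nt in siLarp1 at 24 h, and of 117 and 110 against 81.2 and 96.2 nt at 48 h. It was longer in every siLarp1 library at 24 h and shorter at 48 h, the mirror image of Uqcrh, on 29 to 125 reads a library. The changes of 14.1 ± 7.46 nt at 24 h (adjusted p = 0.767) and -24.3 ± 10.5 nt at 48 h (adjusted p = 0.819) did not pass, nor did the difference between the times (-38.4 ± 12.9 nt, limma adjusted p = 0.645). Its share around 60 nt was 48.6, 40.4 and 43.2% against 35.0, 27.9 and 38.9% at 24 h (-9.91 points, adjusted p = 0.84), and 31.0 and 33.3% against 44.9 and 43.2% at 48 h.

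**Figure D5:**
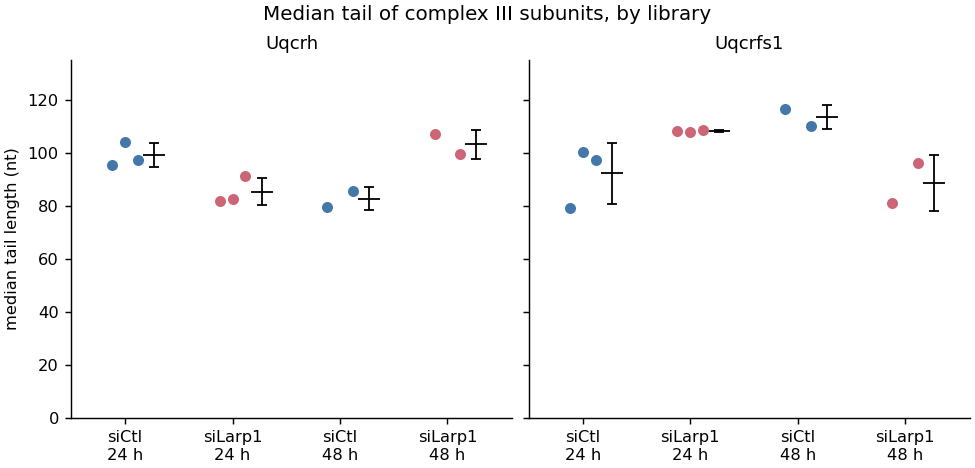
The plot shows the median tail in nt of Uqcrh and Uqcrfs1 in each library, by group, with the mean and SD of each group as a black bar. In Uqcrh the siLarp1 points lie below siCtl at 24 h and above at 48 h, and in Uqcrfs1 the order is the reverse.

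The remaining members with the smallest p in these measures stayed short of the threshold as well. Atp5mpl, a small proteolipid of ATP synthase, had 41.0, 30.5 and 33.2% of its tails around 60 nt in siCtl and 45.6, 36.7 and 43.0% in siLarp1 at 24 h (7.82 ± 4.33 points, adjusted p = 0.857), with overlap. Uqcr10, a small subunit of complex III, had 44.6 and 50.7% against 32.6 and 35.6% at 48 h (-14.0 ± 6.02 points, adjusted p = 0.73), without overlap. The change of Atp5a1, the alpha subunit of the ATP synthase head, was -9.68 ± 4.54 points at 48 h (adjusted p = 0.73). The median tail of Uqcrb, a complex III subunit that binds ubiquinone, was 98.6, 115 and 100 nt against 88.7, 99.2 and 87.6 nt at 24 h (-12.7 ± 6.75 nt, adjusted p = 0.767). That of Cox5a, a complex IV subunit, was 86.3 and 99.9 nt against 99.4 and 120 nt at 48 h (15.5 ± 8.29 nt, adjusted p = 0.844), and the groups of both genes overlapped.

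Other genes of the pathway gave no call over both times in the share under 30 nt (limma, adjusted over all genes tested). This held for the 21 subunits of complex I tested of 46 (median 1.76 percentage points), 3 assembly factors of complexes II to V (0.25), 6 enzymes of the tricarboxylic acid cycle (-0.11) and 13 carriers and pores (0.60). At an unadjusted p under 0.05 (limma), 5 of the 21 complex I subunits were higher and 0 lower, against 9 and 0 of the 36 members. Summed, the share of complex I was 2.27 against 2.94% at 24 h, with overlap, and 2.13 against 3.96% at 48 h, without overlap. In level, none of 45, 30, 17 and 18 genes tested in these lists was called. Among the cytosolic ribosomal protein genes 44 of 79 rose in the share under 30 nt and 0 fell, with a median of 1.61 points, so that these made up most of the 57 genes called. In level, 1 of 80 rose (Rplp1) and 2 fell (Rpl27a and Rps14). The class around 60 nt and the median tail gave no call in any of these lists.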

How the data were processed

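Native poly(A) RNA of 10 libraries was sequenced on R9 nanopores. Per the study's methods, the authors called bases with Guppy, assigned barcodes with Deeplexicon, aligned reads to mouse transcripts (mm10, GENCODE) with Minimap2 2.20 and estimated tails with Nanopolish. The deposited table has 1 line per read and aligned sequence (2652217 lines), which gives a tail length (nt) and its quality tag, the mapping quality, a score, and the barcode confidence, a fraction. It holds reads and not counts per gene, so reads were tallied here: mRNA, tag PASS, no pseudogene or mitochondrial transcript, once per gene (2041970 reads; 527 fell on more than 1 gene).

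Groups came from the labels. The members and lists were chosen with earlier results of these data known. All 10 libraries and 4 groups entered each limma 3.58.1 fit (R 4.3.3): voom on tallies (genes with at least 30 reads), and, for shares and median tails, weighted fits with moderated variance (at least 100 reads, with at least 10 in and 10 outside a class for shares, or 5 in each library for medians). P-values were adjusted by Benjamini-Hochberg over all genes tested, with calls at 0.05. "Over both times" is the mean of the 24 h and 48 h contrasts. The scripts were tested on simulated data. The labels number replicates, but nothing ties table libraries to them, and the p-values measure the spread between these libraries. Members named are those with the most reads per complex (2 each), the 3 smallest p-values per fit and time, and every call; Atp5pb's tails, Uqcrc2 and the members named for library order were chosen after their values were seen. The alternatives tried are given in the closing section.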

Additional observations from a re-analysis of the deposited data

Results flagged for a closer look

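The 9 genes of complex III, their reads summed, had a share of tails around 60 nt (30 to 90 nt) that moved in opposite directions at the 2 times. At 24 h it was 36.8 ± 0.83% in siCtl and 38.4 ± 0.70% in siLarp1 cells (SD, n = 3 each), a difference of 1.62 percentage points with every siLarp1 library above every siCtl library. At 48 h it was 41.9 ± 1.07% against 38.6 ± 0.81% (n = 2 each), a difference of -3.29 points with every siLarp1 library below. The fall at 48 h was not particular to complex III. The reads of all genes other than the members went from 41.2 to 38.5%, also with every siLarp1 library below. Complexes IV and V fell as well (-4.60 and -3.49 points), and complex II overlapped (0.70 points). At 24 h the other genes overlapped (-0.14 points). Complex V and Cycs were higher at 24 h as well (1.30 and 1.33 points), with overlap, and Cycs fell at 48 h (-8.39 points). Complexes II and IV were lower at 24 h (-2.73 and -0.23 points), with overlap. The cytosolic ribosomal protein genes also changed sign, with 1.69 points at 24 h and -1.77 at 48 h, both with overlap. The difference between the times was not tested for the sum of complex III, and pool and treatment cannot be told apart at 24 h.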

How the results depend on the processing

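Read minimums, time points fitted alone, transcripts, reads on 1 gene, barcode confidence of at least 0.9, thinning to 112713 reads, a logistic model, other scalings of the levels, other class limits and each library left out were tried, and, chosen after seeing the data, reads starting within 50 nt of the annotated start. Depth limits the calls: most rest on under 10 short tails a library.

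Members called in level at 24 h numbered 1 (Atp5pb) with no read minimum, by transcript and with the replicate block, and those over both times 0 among reads starting within 50 nt, where Atp5pb was not tested. Members with more tails under 30 nt over both times numbered 4, but 1 at a barcode confidence of at least 0.9, 1 when thinned (Atp5o each time), 0 in the logistic model, 2 with a limit of 20 nt and 0 among reads starting within 50 nt. Atp5o was not tested in the logistic model, with the limit of 20 nt or among reads starting within 50 nt. The 1 call at 48 h became 0 by barcode confidence, in the logistic model and among reads starting within 50 nt. All genes called at 24 h (20) became 31 with times alone, 12 with the replicate block, 11 by transcript, 0 when thinned, 37 in the logistic model, 6 with a limit of 20 nt and 7 among reads starting within 50 nt. At 48 h (29) they became 10 in the logistic model and 6 among reads starting within 50 nt, and over both times (57) 19 there. Among those reads Uqcrfs1 reversed at 24 h, to 1.19 points around 60 nt and a median of -1.10 nt. With a limit of 20 nt the summed difference of the members was 0.197 points at 24 h and 0.753 at 48 h.

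With a library left out, members called in level ranged from 0 to 1 at 24 h and over both times, and those called under 30 nt from 0 to 1 at 24 h, 0 to 2 at 48 h and 0 to 5 over both times. All genes called ranged from 7 to 35, 7 to 38 and 28 to 75. Over both times 0 members were left without siCtl 48 h library 25 and 2 without siCtl 24 h library 22, siLarp1 24 h library 19 or siLarp1 48 h library 24. The lone library left in a 48 h group was assumed to vary like the others.

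In level, the deviations of same-numbered libraries correlated by 0.0193, 0.109 and 0.108 at 24 h and 0.044 at 48 h. Those of differently numbered libraries correlated by -0.101 to 0.00205 at 24 h. In the share around 60 nt, same-numbered libraries correlated by -0.0337 to -0.0155 at 24 h and 0.00054 at 48 h. Whether the numbers pair the libraries is therefore not settled, and the main fits did not pair them. With the replicate block, which fits the library numbers as a factor, 9 genes were called higher and 19 lower in level over both times. Without it these were 4 and 5. Atp5pb then had a limma adjusted p of 4.19e-05. Under 30 nt, 3 members were called over both times with the block, without Cox7a2 (adjusted p = 0.0565).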
